A study of Mus musculus with 6 samples.

Results

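The interferon response and MHC class I presentation genes of splenic regulatory T cells (Treg cells) were followed in 6 RNA-seq libraries. Of 44 listed genes, 43 had a row of their own among the 46078 rows of the deposited table and are the members described here. The remaining one, H2-D1, shares a row with H2-L (written H2-D1//H2-L) and is given beside them without being counted. The members are 34 interferon genes, of which 3 are receptors and 31 are interferon-stimulated genes or their regulators, and 9 MHC class I genes. All 43 are protein-coding and all passed the filter on low values.

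The 3 MAZR-cKO-labelled libraries came from mice with the genotype MAZRf/f DEREG-eGFP+ CD4-cre+, and the 3 WT libraries from wild type DEREG-eGFP+ mice. MAZR is a zinc finger transcription factor encoded by Patz1, and Cre under Cd4 control acts in all T cells that pass through a CD4-positive stage, not in Treg cells alone. Mice of both genotypes were C57BL/6, 6 to 8 weeks old, and carried DEREG, a transgene whose green fluorescent protein is driven by Foxp3 control elements, so that CD4+eGFP+ cells could be sorted. The labels do not say whether a library held cells of 1 mouse or of several, nor whether WT mice carried Cre, and p-values therefore measure the spread between these libraries. The libraries held 15481565 to 28184456 reads. Values are CPM, read counts divided by a number set for each library, and 1 read was worth 0.0347 to 0.0621 CPM. Division by the table's own read totals would give columns of equal sum. The columns held 96.2, 98 and 97.7% of that sum in MAZR-cKO 1, 2 and 3. In WT 1, 2 and 3 they held 97.2, 99.2 and 98.9%. The scale thus differed slightly between libraries, which bears on small shifts between genotypes.

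Some facts of the libraries bear on every comparison below. Patz1 stood at 177, 181 and 179 CPM in the MAZR-cKO-labelled libraries, against 71.6, 74.9 and 67.6 CPM in WT, which is higher and not lower under the knockout label. Its log2 fold change was 1.32 (SE 0.05, limma adjusted p = 3.72e-06). A gene-level value does not show whether the segment meant to be deleted was present, so each direction is that of libraries so labelled. Transcripts of 4 Y-linked genes summed to 116, 0.48 and 199 CPM in MAZR-cKO 1, 2 and 3, against 217, 164 and 276 in WT 1, 2 and 3. Xist, expressed from the inactive X chromosome of female cells, stood at 1145, 1552 and 605 CPM in MAZR-cKO 1, 2 and 3, against 561, 774 and 355 CPM in WT 1, 2 and 3. All libraries but MAZR-cKO 2 thus held both kinds of transcript at high levels, as RNA pooled from female and male mice would. At each replicate number Xist was higher and the Y-linked sum lower in the MAZR-cKO-labelled library than in WT, and the part of this in the comparisons was not tested. Foxp3, the defining factor of Treg cells, was at 1313 to 1415 CPM in the MAZR-cKO-labelled libraries and at 1252 to 1371 CPM in WT.

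Type I interferons bind the receptor made of Ifnar1 and Ifnar2, and interferon gamma binds one that contains Ifngr1. Signalling through JAK kinases forms a complex containing STAT2 and IRF9 that binds interferon-stimulated response elements (ISREs) near its targets, among them antiviral effectors and the pathway's own parts. MHC class I molecules, built of a heavy chain such as H2-K1 and of beta-2 microglobulin, display peptides that the TAP transporter carries into the endoplasmic reticulum, and interferons are known to raise their expression. In T cells tonic interferon signals keep many of these genes on without infection.

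The promoters of members that moved together between libraries are shown first, with a pair for contrast. RefSeq windows from 250 bases before to 50 after the transcription start (build GRCm38.p6) were at hand for 36 of the 44 listed genes. The core of the ISRE was searched on both strands as a repeat of GAAA with any 2 bases between the copies, so that a match on the reverse strand reads TTTC, any 2 bases and TTTC. A match was found in 14 of the 36 (38.9%), against 3.99% of 27025 genes with a window. It was found in 12 of 24 interferon-stimulated members with a window (50%), in 0 of 3 receptors and in 2 of the 9 listed MHC class I genes with a window, B2m and Erap1. These 9 include H2-D1 and not Tap2. TTCNNNGAA, a STAT-binding pattern that reads the same on both strands, was found in 10 of the 36 (27.8%), against 9.55% of all genes, and it overlapped an ISRE match in 1 member, Bst2. A match describes letters only, and a window without one says nothing of the factor. The 160 bases before the start are printed for 6 genes. Isg15, Ifit1, Ifit3 and Rsad2 were highest in MAZR-cKO 1 and WT 3 and lowest in MAZR-cKO 2 within their genotype. Their lowest WT library was WT 1 or WT 2. Oas1a holds matches but had another order of libraries, and B2m is shown as an MHC class I gene. These 6 were picked after their values were seen. Capitals mark the ISRE matches.
Isg15, chr4:156200819-156200978, minus strand: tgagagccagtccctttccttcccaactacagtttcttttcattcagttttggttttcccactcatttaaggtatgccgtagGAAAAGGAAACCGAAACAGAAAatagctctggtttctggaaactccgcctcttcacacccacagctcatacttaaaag
Ifit1, chr19:34640729-34640888, plus strand: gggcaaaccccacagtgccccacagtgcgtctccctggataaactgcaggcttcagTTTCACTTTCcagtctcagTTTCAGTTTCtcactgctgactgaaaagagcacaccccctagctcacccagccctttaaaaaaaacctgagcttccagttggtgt
Ifit3, chr19:34583369-34583528, plus strand: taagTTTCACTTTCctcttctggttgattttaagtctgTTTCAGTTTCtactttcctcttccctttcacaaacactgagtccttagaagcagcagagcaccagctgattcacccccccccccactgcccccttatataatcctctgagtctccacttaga
Rsad2, chr12:26456453-26456612, minus strand: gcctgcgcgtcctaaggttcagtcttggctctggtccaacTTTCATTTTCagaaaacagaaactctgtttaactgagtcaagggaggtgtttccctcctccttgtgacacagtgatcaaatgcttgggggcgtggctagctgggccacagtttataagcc
Oas1a, chr5:120907526-120907685, minus strand: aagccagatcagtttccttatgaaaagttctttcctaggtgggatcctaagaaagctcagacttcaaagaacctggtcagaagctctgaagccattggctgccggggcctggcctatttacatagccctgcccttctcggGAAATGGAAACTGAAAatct
B2m, chr2:122147527-122147686, plus strand: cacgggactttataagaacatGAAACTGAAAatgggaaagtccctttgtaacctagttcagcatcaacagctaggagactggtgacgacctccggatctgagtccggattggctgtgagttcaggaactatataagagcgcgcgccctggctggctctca

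In Isg15, a ubiquitin-like protein that is attached to others during the response, 3 overlapping matches form 1 run that starts 78 bases before the transcription start. Ifit1 and Ifit3, which encode RNA-binding antiviral proteins, hold 2 matches each, Rsad2 (viperin) and B2m 1 each, and Oas1a 2 that overlap, the nearer starting 14 bases before the start.

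The levels come next. Per kilobase of exon the members spanned 3 orders of magnitude, and their ranking was alike in both genotypes. The MHC class I molecule was highest. B2m averaged 2516 CPM per kilobase in the MAZR-cKO-labelled libraries and 2653 in WT, H2-K1 1552 and 1706, and H2-D1//H2-L 1373 and 1334. The genes of peptide loading lay between 20.2 (Erap1, which trims peptides) and 170.5 CPM per kilobase (Tapbp, which encodes tapasin) over all libraries, with the lectin chaperone Calr at 155, the disulfide isomerase Pdia3 at 138, Tap1 at 126, Tap2 at 123 and Canx at 51.3. Receptors followed at 88.7 (Ifngr1), 52.7 (Ifnar1) and 25.3 CPM per kilobase (Ifnar2). Among regulators Irf1 led with 99.6 CPM per kilobase, ahead of Irf9 (45.3), Irf7 (34.5), Stat2 (28.7) and Usp18 (17.02), the protease that removes Isg15 and dampens receptor signalling.

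Among effectors Samhd1, which hydrolyses deoxynucleotides, stood well above the others at 171 CPM per kilobase. Bst2 (tetherin, which holds budding virus at the cell surface) followed at 65.7 and Ifi35 at 49.1. Isg15 stood at 39.8, Rtp4 at 20.9, Ifit2 at 19.0, Ifit1 at 17.4 and Ifit3 at 14.4. The 6 lowest effectors were Mx1 at 5.89, Oas2 at 5.53, Oasl1 at 3.95, Rsad2 at 3.42, Oasl2 at 2.76 and Ifi44 at 1.69 CPM per kilobase. The nucleic acid sensors ranged from Zbp1 (56.1), which binds Z-form nucleic acid, through the RNA sensors Ddx58 (RIG-I, 21.02) and Dhx58 (15.5) to Ifih1 (MDA5, 6.39). Neighbours in this order such as Pdia3 and Tap1, Tap1 and Tap2, or Mx1 and Oas2 overlapped between libraries, whereas the gaps from B2m to the peptide-loading genes and from Samhd1 to Bst2 did not.

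**Figure D1:**
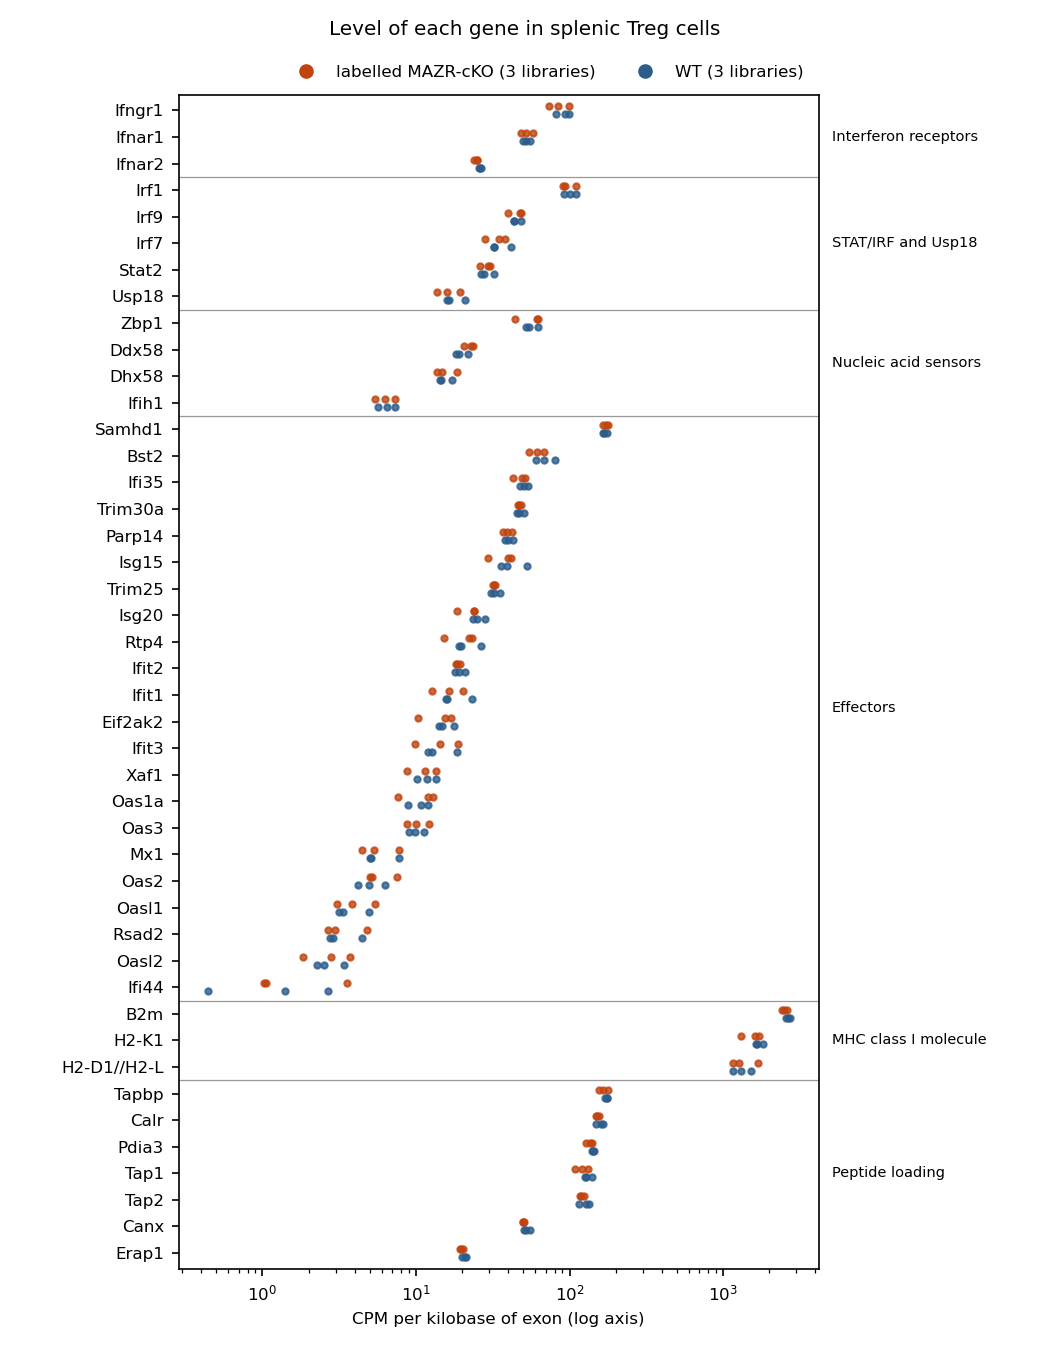
Level of each gene in CPM per kilobase of exon (log axis), 1 point per library, grouped by role, with the 3 libraries labelled MAZR-cKO drawn above the 3 WT libraries in each row. B2m, H2-K1 and H2-D1//H2-L have the highest levels, Samhd1 and most peptide-loading genes the next, and Ifi44, Oasl2, Rsad2 and Oasl1 the lowest.

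The comparison of genotypes asked whether this programme differs between Treg cells labelled MAZR-cKO and WT. None of the 43 members was called. limma on log2(CPM + 0.5), fitted on 12040 genes and adjusted over all of them by the Benjamini-Hochberg method, called 0 members at an adjusted p under 0.05 (smallest adjusted p 0.914), where 0.0415% of all genes were called. At an unadjusted p under 0.05 limma had 1 member, Ddx58, against 5.25% of all genes. It was higher, where 2.33% of all genes were higher and 2.92% lower. edgeR and DESeq2 on recovered whole reads also called 0 members, with 1 at an unadjusted p under 0.05 in each. Among the 12040 genes, edgeR called 5 and DESeq2 32, and 640 and 423 had an unadjusted p under 0.05. With a term for the replicate number (the block) limma again called 0 members, where 0.382% of all genes were called, and at an unadjusted p under 0.05 it had 1 higher (Ddx58) and 3 lower (Isg20, Bst2 and Tap1), where 3.98% and 6.66% of all genes were. An exact permutation test of 3 libraries against 3 cannot go below p = 0.1.

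Log2 fold changes, libraries labelled MAZR-cKO minus WT, ran from -0.22 (Isg20) to 0.37 (Ifi44) over the members. The median was -0.026 for the 34 interferon genes and -0.068 for the 9 MHC class I genes, against -0.014 over all genes tested. Of the interferon genes 22 of 34 had a lower mean in the MAZR-cKO-labelled libraries, and of the MHC class I genes 9 of 9, where 56.1% of all genes did. In edgeR on recovered reads the medians were -0.015 and -0.057, against -0.001 over 12957 genes. There 19 of 34 interferon genes and 9 of 9 MHC class I genes were lower. Without the block, the unadjusted 95% limma interval of 42 members included 0, and that of Ddx58 began just above it. The widest was that of Ifi44, from -1.03 to 1.76. With the block, the intervals of Ddx58, Isg20, Bst2 and Tap1 excluded 0, and that of Ifi44 ran from -0.12 to 0.85.

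Among the receptors, Ifnar2 (chromosome 16, 91372783 to 91405589, mm10), the high-affinity chain of the type I receptor, had 79.7, 82.5 and 83.2 CPM in MAZR-cKO 1, 2 and 3, against 86.2, 88.3 and 86.3 CPM in WT 1, 2 and 3. It was the only member whose genotypes did not overlap, at 81.8 ± 1.8 and 86.9 ± 1.2 CPM (SD, n = 3 each), where 5.74% of all genes were lower without overlap and 5% higher. Its log2 fold change was -0.09 (SE 0.04, limma adjusted p = 0.914). Ifnar1 had 287, 342 and 311 CPM in the MAZR-cKO-labelled libraries and 297, 310 and 331 CPM in WT, with overlapping ranges. Ifngr1, a chain of the interferon gamma receptor, had 209.8, 282 and 241 CPM in the MAZR-cKO-labelled libraries, against 233, 282 and 267 CPM in WT, and the replicate 2 library was the highest of each genotype. Each of the 3 receptor genes was lowest in the replicate 1 library of each genotype.

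Among the regulators Irf1, an early interferon gamma target, had 374, 360 and 436 CPM in the MAZR-cKO-labelled libraries and 368, 403 and 436 CPM in WT. Irf9, the DNA-binding part of the type I complex, had 257, 215 and 260 CPM, against 234, 235 and 261 CPM in WT. Irf7, which amplifies type I interferon production and was chosen for display after its values were seen, had 144, 106 and 132 CPM in the MAZR-cKO-labelled libraries and 121, 121 and 157 CPM in WT. In all 3 genes MAZR-cKO 2 was the lowest and WT 3 the highest of its genotype, and the genotypes overlapped. Log2 fold changes of the 5 regulators ran from -0.13 (Usp18) to 0.00 (Stat2).

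Ddx58 (chromosome 4, 40203773 to 40239828, mm10), the sensor RIG-I, was the member with the smallest p. It had 166, 145 and 160 CPM in the MAZR-cKO-labelled libraries, against 135, 128 and 154 CPM in WT, or 157 ± 11 and 139 ± 14 CPM (SD, n = 3 each). It was higher in the library labelled MAZR-cKO of each replicate number, but MAZR-cKO 2 lay below WT 3. The log2 fold change was 0.17 (SE 0.08, limma unadjusted p = 0.0499, adjusted p = 0.914), and with the block it had an SE of 0.05 and a limma adjusted p of 0.263. Zbp1 had 221, 155 and 217 CPM in the MAZR-cKO-labelled libraries and 192, 183 and 220 CPM in WT, with overlap, and Dhx58 and Ifih1 had log2 fold changes of 0.02 and -0.04. All 4 sensors were highest in MAZR-cKO 1 and in WT 3 within their genotype, and all 4 were lowest in MAZR-cKO 2 and in WT 2.

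Among the effectors Isg20 (chromosome 7, 78913424 to 78920396, mm10), an exonuclease acting on RNA, had 44.2, 34.3 and 44.4 CPM in the MAZR-cKO-labelled libraries, against 46.3, 43.7 and 52.6 CPM in WT. It was lower in the library labelled MAZR-cKO of each number, although the ranges overlapped, with a log2 fold change of -0.22 (SE 0.11, limma adjusted p = 0.914, or 0.274 with the block). This was -0.097 without MAZR-cKO 2 and -0.144 without WT 3. Bst2 had 55.7, 49.4 and 61.9 CPM in the MAZR-cKO-labelled libraries and 54.4, 61.9 and 72.8 CPM in WT, lower in 2 of the 3 numbers (log2 fold change -0.17, SE 0.11, limma adjusted p = 0.914, or 0.389 with the block). This was -0.066 without WT 3, -0.092 without MAZR-cKO 2 and -0.275 without WT 1. Isg15 and Ifit1 were chosen for display after their values were seen. Isg15 had 31.6, 22.1 and 30.0 CPM in the MAZR-cKO-labelled libraries and 27.1, 29.6 and 39.8 CPM in WT. Ifit1 had 53.7, 34.0 and 43.8 CPM, against 42.4, 41.8 and 61.8 CPM in WT. In both, WT 3 was the highest library of the 6 and MAZR-cKO 2 the lowest.

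The remaining effectors are described by their ranges. Among the RNA-binding Ifit proteins Ifit3 had 17.3 to 32.7 CPM in the MAZR-cKO-labelled libraries and 20.9 to 32.2 CPM in WT, while its relative Ifit2 had 71.2 to 76.0 CPM and 70.2 to 82.1 CPM. The Ifit3 transcript is 98% identical to that of Ifit3b over 1697 aligned bases, and Ifit3b averaged 4.72 and 5.65 CPM in MAZR-cKO and WT. The GTPase Mx1 had 16.7 to 29.4 CPM in the MAZR-cKO-labelled libraries and 19.1 to 29.4 CPM in WT. The 2-5A synthetases Oas2 and Oas3 and the related Oasl1 had log2 fold changes of 0.20, 0.03 and 0.10. Eif2ak2, the RNA-activated kinase PKR that stops translation, had 52.6 to 86.7 CPM in the MAZR-cKO-labelled libraries and 71.8 to 90.5 CPM in WT, a log2 fold change of -0.15. Rsad2, Rtp4, Ifi35, Xaf1, Trim25, Trim30a and Parp14 had log2 fold changes of -0.11 to 0.03. Samhd1, the most abundant effector, differed least between libraries, by 1.08 times at most, with 1576, 1519 and 1631 CPM in those labelled MAZR-cKO and 1503, 1531 and 1611 CPM in WT.

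**Figure D2:**
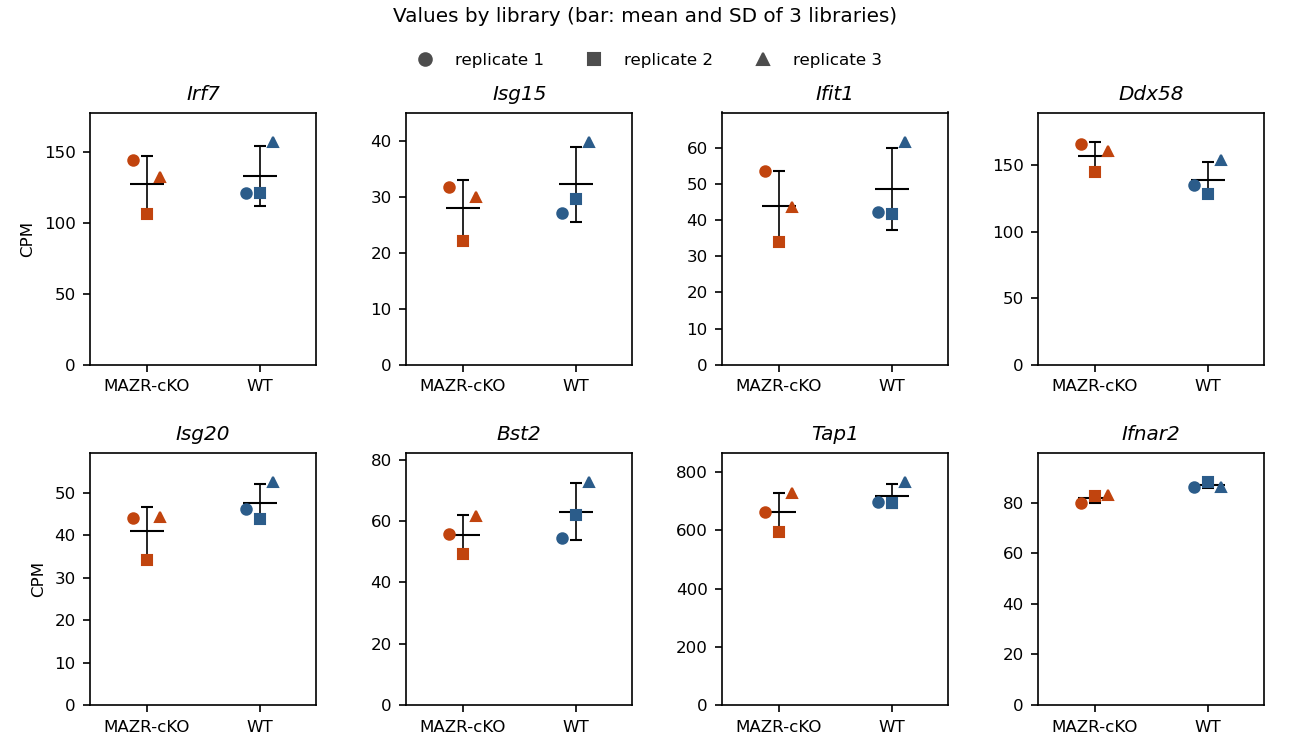
CPM of 8 members in each library (axis from 0), the 3 libraries labelled MAZR-cKO left of the 3 WT libraries, with a marker shape per replicate number and a bar for mean and SD. Irf7, Isg15 and Ifit1 are lowest in MAZR-cKO 2 and highest in WT 3, Ddx58 is shifted up and Isg20, Bst2 and Tap1 down in the MAZR-cKO-labelled libraries with overlap, and Ifnar2 lies at 79.7 to 83.2 CPM against 86.2 to 88.3 CPM in WT.

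The interferon-stimulated members differed between libraries of 1 genotype, and most did so together. Of the 31, 22 were highest in MAZR-cKO 1 among the libraries so labelled and 26 were lowest in MAZR-cKO 2, where 26.6% and 34% of all genes tested were. Within WT, 29 of the 31 were highest in WT 3, 18 were lowest in WT 1 and 13 in WT 2, where 34.3%, 35.1% and 34.5% of all genes were. The mean deviation from the own genotype's mean, in log2 units over the 31 genes, was 0.17 in MAZR-cKO 1, -0.16 in MAZR-cKO 2 and -0.02 in MAZR-cKO 3, and it was -0.15 in WT 1, -0.06 in WT 2 and 0.21 in WT 3. Over all genes tested it lay between -0.007 and 0.006 in each library. The ratio of the highest to the lowest of the 6 libraries had a median of 1.48 over the 31 genes, against 1.22 over all genes. The order of MAZR-cKO 1 highest, MAZR-cKO 2 lowest and WT 3 highest held in 9 of the 12 members with the ISRE letters (all but Oas1a, Oas3 and Bst2) and in 4 of the 12 with a window and without them, a split described after the order was seen and not tested. The share of all genes with this order was not counted. Some of the 9 varied little, with highest-to-lowest ratios of 1.11 in Trim30a and 1.22 in Stat2, against 1.89 in Ifit3. The highest-to-lowest ratio reached 2-fold in Oasl2 and Ifi44, where 8.75% of all genes did. Oasl2 had 23.7, 11.7 and 17.7 CPM in MAZR-cKO 1, 2 and 3, against 16.1, 14.4 and 21.6 CPM in WT 1, 2 and 3.

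The high libraries carried different numbers in the 2 genotypes, and pair 1 went the other way from pairs 2 and 3. Across all 12040 genes, libraries that share a replicate number deviated together, with correlations of 0.40, 0.38 and 0.38 across genes. In pair 1, 29 of the 31 interferon-stimulated members were higher in the library labelled MAZR-cKO, with a median log2 difference of 0.22. In pair 2 only 8 of the 31 were higher (median -0.13) and in pair 3 only 3 of the 31 (median -0.24), where 43.1%, 46.7% and 48.6% of all genes were higher in pairs 1, 2 and 3. Leaving out single libraries moved the number of these 31 members with a lower mean in the MAZR-cKO-labelled libraries from 20 to between 6 (without WT 3) and 27 (without MAZR-cKO 1, and likewise without WT 1). The median log2 fold change of all 34 interferon genes then lay between -0.105 and 0.052.

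**Figure D3:**
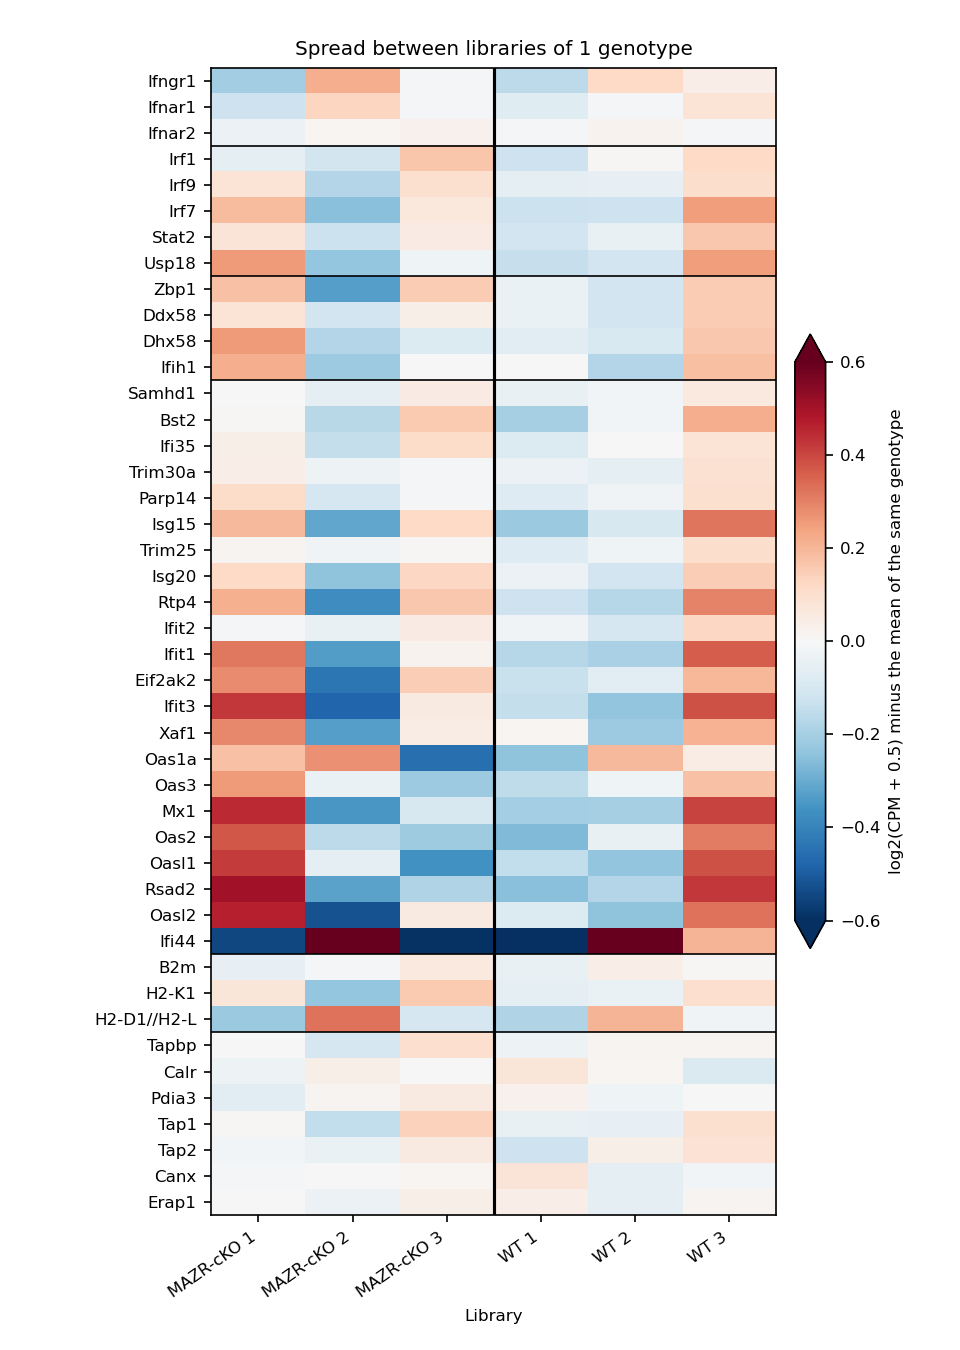
Deviation of each gene from the mean of its own genotype in log2(CPM + 0.5), by library, the 3 libraries labelled MAZR-cKO left of the 3 WT libraries and genes grouped by role (red high, blue low, colours saturate at 0.6). Most interferon-stimulated genes are high in MAZR-cKO 1 and WT 3 and low in MAZR-cKO 2, while Ifi44, Oas1a and H2-D1//H2-L are highest in replicate 2 of each genotype and the peptide-loading genes vary less.

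Markers of other cell types are given for the same libraries, and limma called 0 of those tested, where 0.0415% of all genes were called. With so few calls among all genes, 0 does not show that levels were equal. Tested were 4 of 7 plasmacytoid dendritic cell, 3 of 6 monocyte and macrophage, 2 of 5 conventional dendritic cell and 2 of 5 neutrophil markers. All markers of B cells, NK cells, CD8 T cells and red cells were tested. Their part in the order of the libraries was not tested. The 7 plasmacytoid dendritic cell markers, cells known for interferon production, summed to 170 to 210 CPM in the MAZR-cKO-labelled libraries and to 176 to 196 CPM in WT, most of it Pacsin1. Of these 7, Siglech was at 0.31, 1.49 and 0.38 CPM in MAZR-cKO 1, 2 and 3 and at 0.61, 0.66 and 0.22 CPM in WT 1, 2 and 3, and Klk1 and Cox6a2 had at most 2 reads in any library. Tcf4 had 9.9, 8.4 and 8.2 CPM in the MAZR-cKO-labelled libraries, against 7.0, 7.0 and 7.6 CPM in WT. It was higher without overlap, as 5% of all genes were. Ccr9 had 9.3 to 18.7 and 11.3 to 13.2 CPM, and Runx2 27.3 to 30.4 and 26.0 to 29.3 CPM, in MAZR-cKO and WT. The 6 B cell markers summed to 90.9, 91.9 and 54.96 CPM in MAZR-cKO 1, 2 and 3 and to 63.7, 67.9 and 76.0 CPM in WT 1, 2 and 3. The 6 monocyte and macrophage markers summed to 88.1, 69.7 and 27.5 CPM in the MAZR-cKO-labelled libraries and to 68.2, 53.4 and 44.03 CPM in WT. Sums in the MAZR-cKO-labelled libraries and in WT were 18.5 to 33.3 and 16.2 to 24.9 CPM for NK cells, 15.1 to 17.2 and 13.4 to 15.4 CPM for CD8 T cells, 4.51 to 9.45 and 6.32 to 7.97 CPM for conventional dendritic cells, 0.763 to 4.96 and 1.15 to 8.73 CPM for neutrophils, and 9.47 to 20.0 and 13.6 to 48.7 CPM for red cells. MAZR-cKO 1 had the highest sums of its genotype for monocytes and macrophages, conventional dendritic cells, NK cells and red cells. WT 3 had the highest sums of WT for B cells, neutrophils and CD8 T cells, and the lowest for monocytes and macrophages, conventional dendritic cells, NK cells and red cells. In bulk samples fewer cells of a type and less RNA per cell cannot be told apart.

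By the highest Pearson correlation with the mean of the 31 interferon-stimulated members over the 6 libraries, after subtracting each genotype's mean, the 8 most similar of 11996 other genes were Lcat, Ighj2, Fbxl6, Prkrip1, Fam214b, Adar, Cd274 and Golph3l, with r of 0.983 to 0.998. The top 2 were low, with Lcat at 1.19 and 1.05 CPM and Ighj2 at 3.68 and 3.77 CPM in MAZR-cKO and WT, where the filter asked for 1 CPM. Further down the ranking, Adar, an RNA-editing enzyme with an interferon-induced form, averaged 366 CPM in the MAZR-cKO-labelled libraries and 375 CPM in WT. Cd274, which encodes PD-L1, averaged 112 and 113 CPM. These genes are the top of a ranking over many genes and 6 libraries, and the values are a description.

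The MHC class I genes varied less, with a median highest-to-lowest ratio of 1.12. All 9 members had a lower mean in the MAZR-cKO-labelled libraries, by 0.06 to 0.14 on the log2 scale, and 0 was called by limma. With the block, 1 had an unadjusted p under 0.05, where 3.98% of all genes were higher and 6.66% lower at that limit. Without it 0 had, where 5.25% of all genes had, and in edgeR and DESeq2 0 had. Within pairs 1, 2 and 3, 1, 0 and 2 of the 9 were higher in the library labelled MAZR-cKO, where 43.1%, 46.7% and 48.6% of all genes were. All 9 kept a lower mean in every alternative tried, each left-out library included, but single libraries set much of the size. Without MAZR-cKO 2 the log2 fold change was -0.028 for H2-K1, against -0.144 with all libraries, -0.049 for Tap1, against -0.123, and -0.021 for Tapbp, against -0.072. Without MAZR-cKO 3 these were -0.224, -0.193 and -0.123, and without WT 3 they were -0.094, -0.076 and -0.065. B2m was at -0.051 without MAZR-cKO 1, and Calr at -0.028 without WT 1 and -0.107 without WT 3. MAZR-cKO 3 was the highest library so labelled in 8 of the 9, where it was for 40.3% of all genes tested. H2-D1//H2-L, the row that is not counted, had a log2 fold change of 0.03.

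Tap1 (chromosome 17, 34187553 to 34197225, mm10), a subunit of the peptide transporter, had 662, 595 and 726 CPM in the MAZR-cKO-labelled libraries, against 696, 693 and 766 CPM in WT, or 661 ± 66 and 719 ± 41 CPM (SD, n = 3 each). It was lower in the library labelled MAZR-cKO of each number with overlapping ranges, and its log2 fold change was -0.12 (SE 0.08, limma adjusted p = 0.914, or 0.382 with the block). B2m had 2088, 2151 and 2253 CPM in the MAZR-cKO-labelled libraries and 2210.1, 2344 and 2291 CPM in WT (log2 fold change -0.08, SE 0.07, limma adjusted p = 0.926). Tapbp had 602, 561 and 647 CPM, against 621, 640.4 and 639.7 CPM in WT. Calr, the chaperone of the loading complex, had 426, 446 and 434 CPM in the MAZR-cKO-labelled libraries and 478, 459 and 429 CPM in WT, and its highest libraries were not those of the interferon-stimulated genes. Tap2, the partner of Tap1, had 442 to 471 CPM in the MAZR-cKO-labelled libraries and 436 to 505 CPM in WT. The glycoprotein chaperone Canx had 233 to 237 CPM and 236 to 259 CPM, Pdia3 404 to 440.0 CPM and 437 to 453 CPM, and Erap1 140.0 to 147 CPM and 145 to 155 CPM in MAZR-cKO and WT, each with overlap.

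The heavy chain rows are given together. H2-K1 (chromosome 17, 33996017 to 34000347, mm10) had 4764, 3858 and 5059 CPM in MAZR-cKO 1, 2 and 3, against 4803, 4865 and 5369 CPM in WT 1, 2 and 3. It was lowest in MAZR-cKO 2, while WT 2 lay close to WT 1. H2-D1//H2-L was highest in the replicate 2 library of each genotype, with 2991, 4377 and 3255 CPM in the MAZR-cKO-labelled libraries and 3014, 3941 and 3364 CPM in WT. H2-K1 made up 46.9% of the 2 rows' sum in MAZR-cKO 2 and 55.2% in WT 2, and 60.9 to 61.5% in each of the 4 libraries of other numbers. The sum itself was 7755, 8235 and 8313 CPM in the MAZR-cKO-labelled libraries and 7817, 8806 and 8734 CPM in WT. The longest protein-coding transcripts of H2-K1 and H2-D1 are 90.3% identical over 1475 aligned bases, so reads may have been split between such copies, and the part of this in the values was not tested.

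Other H2 genes, picked after their values were seen, shared the split by replicate number. H2-Q10, known as a secreted class I molecule of the liver (chromosome 17, 35470089 to 35474563, mm10), had 1.74, 53.2 and 1.35 CPM in MAZR-cKO 1, 2 and 3, against 1.73, 23 and 1.29 CPM in WT 1, 2 and 3. H2-Q2 (chromosome 17, 35342242 to 35346762) had 4.54, 98.7 and 3.95 CPM in the MAZR-cKO-labelled libraries and 4.72, 47.7 and 5.20 CPM in WT. In both genes the replicate 2 library was far above the other libraries of its genotype, 34.4 and 23.3 times their mean in MAZR-cKO and 15.3 and 9.61 times in WT. H2-T23, the mouse Qa-1 molecule, was lower there, with 474, 282 and 466 CPM in the MAZR-cKO-labelled libraries and 510, 438 and 542 CPM in WT, as was the row H2-T22//H2-T9, with 215, 119.9 and 243 CPM and 229, 195 and 263 CPM. Of 24 rows of H2 genes tested, H2-Q10 and H2-Q2 were the 2 where replicate 2 exceeded 1.5 times the mean of the other libraries in both genotypes. MAZR-cKO 2 held almost no Y-linked transcripts, whereas WT 2, with the same pattern at H2-Q10 and H2-Q2, held 164 CPM of them. The labels give C57BL/6 for all mice, and whether the replicate 2 mice differed in the MHC region of chromosome 17 was not tested.

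Among the effectors, 2 more members had replicate 2 highest in both genotypes. Ifi44 (chromosome 3, 151730922 to 151749960, mm10), an interferon-induced protein of uncertain function, had 6.46, 21.8 and 6.24 CPM in the MAZR-cKO-labelled libraries, against 2.69, 16.4 and 8.56 CPM in WT. It was highest in both replicate 2 libraries, of which MAZR-cKO 2 was the low one for 26 of the 31 interferon-stimulated members, and it ranged 8.10-fold, the widest of the members. Its counts were 53 to 409 reads per library. Oas1a, which makes the 2-5A signal that activates RNase L, had 22.5, 24.2 and 14.4 CPM in the MAZR-cKO-labelled libraries and 16.6, 22.7 and 20.4 CPM in WT, with MAZR-cKO 3 lowest. Its transcript is 97.5% identical to that of Oas1g, which had at most 0.435 CPM. With Ifngr1 and H2-D1//H2-L these made 4 of 44 rows with replicate 2 highest in both genotypes (9.09%), against 16.2% of all genes.

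**Figure D4:**
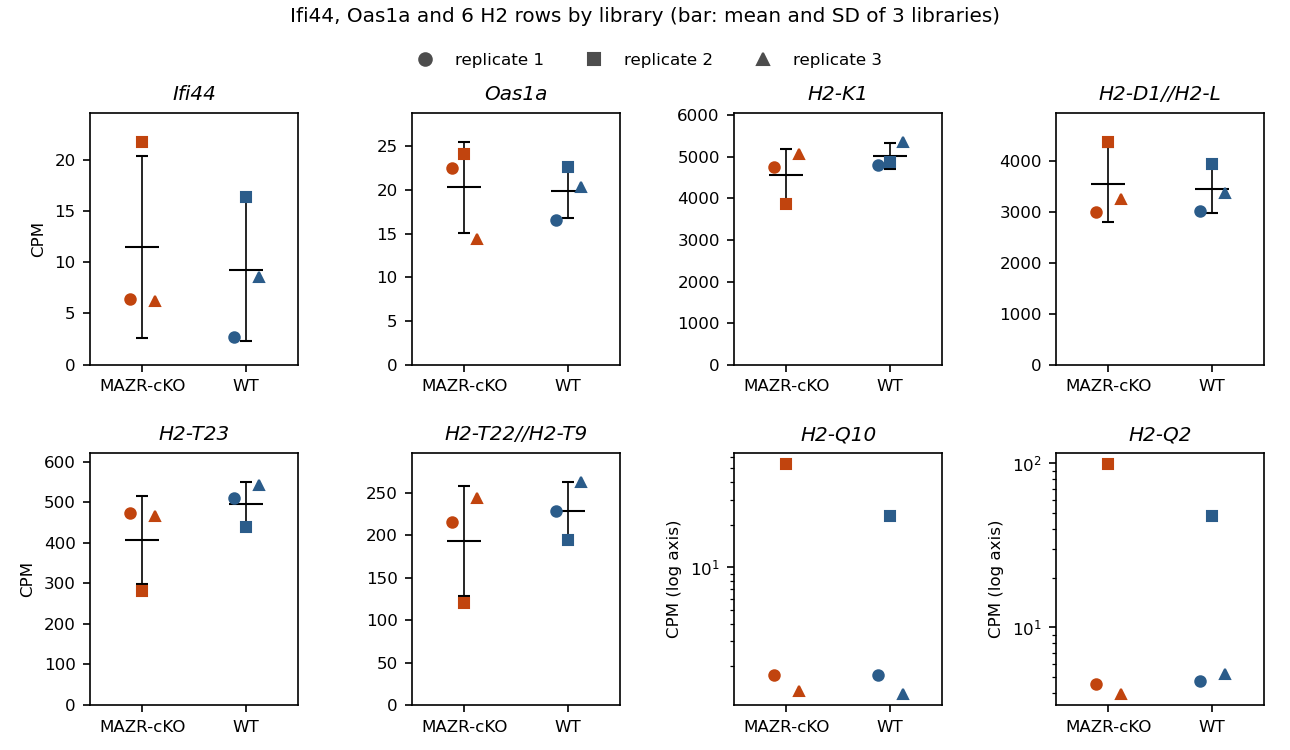
CPM of Ifi44, Oas1a and 6 H2 rows in each library, the 3 libraries labelled MAZR-cKO left of the 3 WT libraries, with a marker shape per replicate number; H2-Q10 and H2-Q2 are on log axes without mean bars, the others start at 0 with mean and SD. The squares of replicate 2 stand high for Ifi44, H2-D1//H2-L, H2-Q10 and H2-Q2 and low for H2-T23 and H2-T22//H2-T9.

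The wider pathway gave no call either. Of 112 further genes, in lists of interferon signalling, other interferon-stimulated genes and MHC class I and its control, 108 were tested and limma called 0, as did limma with the block and edgeR. At an unadjusted p under 0.05 limma had 0 higher and 2 lower, Psmb9 and Tmem173, where 2.33% and 2.92% of all genes were. With the block it had 1 higher and 15 lower, where 3.98% and 6.66% of all genes were. The 15 were 3 of the 23 signalling genes tested, 5 of the 60 other interferon-stimulated genes and 7 of the 25 MHC class I genes. The 1 higher gene was also in the MHC class I list. By list, the median log2 fold change was -0.012 for 23 signalling genes, -0.039 for 60 other interferon-stimulated genes and -0.054 for 25 MHC class I genes, and 12, 44 and 18 of them had a lower mean in the MAZR-cKO-labelled libraries, where 56.1% of all genes did. Psmb9, an immunoproteasome subunit that makes class I peptides, averaged 209.0 ± 13 CPM in the MAZR-cKO-labelled libraries and 229 ± 9.4 CPM in WT. Tmem173, which encodes the DNA-pathway adaptor STING, averaged 269 ± 17 and 296 ± 14 CPM (SD, n = 3 each). For each of the 2 the limma adjusted p was 0.914.

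In the signal chain the receptor kinase Jak1 averaged 960.0 ± 54 CPM in the MAZR-cKO-labelled libraries and 942 ± 53 CPM in WT (SD, n = 3 each). Its partner Tyk2 averaged 251 ± 4.3 and 254 ± 3.4 CPM in MAZR-cKO and WT, and Nlrc5, the transactivator of MHC class I genes, 740.5 ± 30 and 719 ± 66 CPM. The log2 fold changes of Jak1, Tyk2 and Nlrc5 were 0.03, -0.02 and 0.05. After Psmb9 and Tmem173 the smallest p-values in the lists belonged to Tapbpl (124 and 133 CPM in MAZR-cKO and WT), the phosphatase Ptpn2 (56.9 and 61.7 CPM), H2-M3 (66.1 and 70.5 CPM), H2-T23 (407 and 496 CPM), the immunoproteasome subunit Psmb10 (134 and 147 CPM) and Gbp3 (94.0 and 108 CPM), each with a limma adjusted p of 0.914. Tlr3, Ifna4, Ifnb1 and Oas1g did not reach the filter.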

How the data were processed

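The authors deposited 1 table with a value per gene for each of 6 RNA-seq libraries. The unit is CPM, as read from the deposited values: in each column 100% of values above 0 were whole multiples of the smallest, within 0.01 reads, so whole reads were recovered. The submitters' processing notes name mm10 and, among their tools, STAR 2.5.2b, FastQC, edgeR, R 3.4 and Subread 1.5.1; their roles, the strand mode and the annotation are not given in the sources used here. Of 46078 identifiers, 45143 matched GENCODE M21 (GRCm38, which mm10 denotes), the source of gene coordinates and of summed exon lengths. Promoters are RefSeq's.

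limma 3.58.1 (R 4.3.3) was run with an intensity trend on log2(CPM + 0.5), which understates changes of low genes, over 12040 genes, those with 1 CPM or more in 3 or more libraries. Alternatives were edgeR 4.0.16 and DESeq2 1.42.0 on recovered reads, a replicate block, other pseudocounts, no filter, other scalings and leaving out libraries. The fits of limma, with and without the block, edgeR and DESeq2 were tested on simulated data. Values are mean ± SD. Same-numbered libraries share a code in the descriptions and correlated at 0.40, 0.38 and 0.38, each above a limit of 0.1, so the numbers were taken as pairs; the fit without the block is given first. Members, lists and tests were chosen with earlier results of these data known. Values in every library are given for members at an unadjusted p under 0.05 with or without the block, without overlap, with a range of 2-fold or more, or among the 2 most abundant of their role, and for others where said. The values of 1 further pathway gene are not reported here.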

Additional observations from a re-analysis of the deposited data

How the results depend on the processing

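In each of 16 alternatives 0 members were called. The number of all genes called was 46 with the replicate block in limma and in edgeR, 32 in DESeq2, and 3 to 14 with libraries left out, against 5. Members at an unadjusted p under 0.05 numbered 4 with the block in limma and in edgeR, 0 with a pseudocount of 0.1, and 0 to 2 with libraries left out, against 1. At that limit limma had 5.25% of all genes without the block, and with it 3.98% higher and 6.66% lower. The block thus raised the share of all genes too. The block changed no member's call. The median of the interferon genes ran from -0.105 to 0.052 with libraries left out, and that of the MHC class I genes from -0.093 to -0.050.

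For 22 rows shown in every library, 42 of 352 log2 fold changes changed sign, and none of the 352 was called (smallest adjusted p 0.263). Zbp1 became 0.007 in edgeR, 0.002 in DESeq2 and 0.008 with quantile normalization. Oasl2 became 0.037 in edgeR, 0.035 in DESeq2, 0.008 in edgeR with the block, 0.009 with quantile normalization and 0 with equal medians, and Samhd1 -0.011 with quantile normalization. With libraries left out, values ran from -0.108 to 0.145 for Zbp1, -0.241 to 0.252 for Oasl2, -0.001 to 0.053 for Samhd1, -0.207 to 0.006 for Ifngr1, -0.045 to 0.089 for Irf9, -0.128 to 0.236 for Oas1a, -0.069 to 0.062 for Ifnar1, -0.129 to 0.013 for Irf1, -0.285 to 0.917 for Ifi44, -0.132 to 0.143 for H2-D1//H2-L, -0.156 to 0.064 for Irf7 and -0.307 to 0.033 for Ifit1. The cause was not tested, beyond the smaller number of libraries. Leaving out both replicate 2 libraries was added after seeing the data. Members rested on 53 to 145884 reads per library, with the fewest in Ifi44.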
